A study of Mus musculus with 4 samples.

Results

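The genes described here encode the enzymes that add methyl groups to, or remove them from, histone lysines, together with the related PRDM zinc finger proteins. They were chosen by symbol alone. The set takes every gene whose symbol starts with Kdm, Kmt, Setd, Prdm, Ehmt or Suv39h and a family number or letter, plus Ezh1, Ezh2, Nsd1, Dot1l and Jmjd1c. This gave 59 of the 25265 genes in the deposited table. Of the 59, 57 are annotated as protein-coding. The symbol rule also took Kdm6bos, a noncoding transcript antisense to Kdm6b, and Kdm4dl, an unprocessed pseudogene related to Kdm4d.

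Testes were taken from C57BL/6 mice aged postnatal day 56 and compared between a control genotype and Ythdf2-vKO, a germ cell-specific mutant of the m6A reader gene Ythdf2 according to the series title. The YTHDF2 protein binds RNAs carrying m6A and promotes their decay. Each group had 2 libraries of ribosomal RNA-depleted total RNA. The labels name no Cre driver, no deleted exons and no further allele carried by the controls, and they do not say whether each library came from its own animal. If they did not, the p-values measure only a technical spread.

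Methylation of histone H3 at lysines 4, 36 and 79 is found on active genes. Methylation of H3 lysines 9 and 27 and trimethylation of H4 lysine 20 are found on silenced or compacted chromatin. SET-domain enzymes write most of these marks, DOT1L writes that on lysine 79, and demethylases of the LSD1 and JmjC types remove them. In the male germ line these enzymes act in stem cell maintenance, in meiotic recombination and in the change from histones to protamines, and PRDM9 places the lysine 4 mark at meiotic recombination hotspots.

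Total counts were between 24862518 and 29561182 per library. Replicates differed beyond sampling noise (chi-square over its degrees of freedom, 19.4 in control and 7.84 in Ythdf2-vKO), so no replicate was taken for another library deposited again. Whether they are separate animals is not settled by it. For the targeted gene Ythdf2 the counts were 1193 and 1604 in control and 1774 and 1807 in Ythdf2-vKO, a log2 fold change of 0.35 (SE 0.13, edgeR adjusted p 0.238). Its transcript was not lower, and counts over a whole gene need not show the loss of a part of it, so the genotype labels were not checked by this gene. "Ythdf2-vKO" below means the libraries that carry that label. No gene of the 10 testis cell marker lists was at 0 in all libraries. Sertoli cell genes had positive log2 fold changes in 12 of 12 cases and Leydig cell genes in 8 of 8, while elongating spermatid genes had negative ones in 11 of 12. In a whole organ, fewer cells of a type and less RNA per cell cannot be told apart.

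Promoter sequences are shown for 3 members, chosen for the direction of their differences, as examples of the start regions of these genes. They are Kmt5a and Kmt2d, with higher values in Ythdf2-vKO, and Kdm4d, with lower ones, none past the adjusted threshold. Each line is the 134 bases just before the RefSeq start in GRCm38.p6, 5′ to 3′ on the strand of the gene, and capitals mark each CG dinucleotide, the site of CpG methylation. The positions are chr5:124439796-124439929 on the plus strand for Kmt5a, chr15:98871206-98871339 on the minus strand for Kmt2d and chr9:14500483-14500616 on the minus strand for Kdm4d.
Kmt5a: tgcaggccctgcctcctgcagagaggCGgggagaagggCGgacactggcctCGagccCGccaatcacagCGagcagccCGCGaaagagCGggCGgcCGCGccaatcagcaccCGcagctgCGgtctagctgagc
Kmt2d: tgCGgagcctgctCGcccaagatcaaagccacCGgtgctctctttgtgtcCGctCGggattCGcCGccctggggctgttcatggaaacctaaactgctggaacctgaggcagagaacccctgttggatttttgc
Kdm4d: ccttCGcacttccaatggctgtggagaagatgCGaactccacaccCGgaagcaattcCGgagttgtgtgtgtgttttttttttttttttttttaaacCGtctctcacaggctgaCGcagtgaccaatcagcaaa
These windows held 13, 7 and 6 CG dinucleotides, and their GC content was 70.9%, 58.2% and 45.5%. Kmt5a has 2 further RefSeq windows, with 27 and 5 CG dinucleotides. The GC content of the longest transcript, which is the composition compared with fold changes below, was 49.7% for Kmt5a, 58.4% for Kmt2d and 51.6% for Kdm4d, an order unlike that of the promoters. No relation of promoter sequence to the differences was tested. RefSeq promoters were found for 44 of the 59 members, 61 windows in all. Their median number of CG dinucleotides in 134 bases was 12 against 3 over the 32851 promoter windows of all genes, and 95.1% of them held at least 1 against 84.0%. The CG dinucleotide reads the same on both strands. The counts are descriptions of sequence and say nothing of methylation in these testes.

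Levels of the 59 genes were compared as CPM (counts scaled to the TMM-adjusted library size) per kilobase of the longest annotated transcript. They spanned a wide range, from 0.0211 for Prdm1 to 98.5 for Ehmt2 as means of the 4 libraries, with a median of 4.78 against 3.90 for all genes tested. Above 10 CPM per kilobase lay 16 genes, between 1 and 10 lay 36, and under 1 lay 7. These are levels in a mixed organ and do not show which cells held the RNA.

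Ehmt2, which encodes the H3 lysine 9 methyltransferase G9a, was the most abundant member per kilobase. It had 446 and 299 CPM in the control libraries and 435 and 407 CPM in those labelled Ythdf2-vKO. The groups overlapped, because control replicate 1 was the highest library and control replicate 2 the lowest. Its partner in the G9a-GLP heterodimer, Ehmt1, was much less abundant. Ehmt2 exceeded Ehmt1 by between 36.3 and 61.1 times per kilobase in the 4 libraries.

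Several demethylase genes followed Ehmt2. Kdm4d, which encodes an H3 lysine 9 demethylase known for its high level in testis, averaged 51.9 CPM per kilobase. Kdm3a averaged 42.9, and its product is required for spermatids to activate protamine and transition protein genes. Kdm5b, an H3 lysine 4 demethylase gene, averaged 41.0, and Kdm1a, which encodes the flavin-dependent demethylase LSD1, averaged 40.9. Kdm5b had 369.9 and 348 CPM in control against 369 and 342 CPM in Ythdf2-vKO, and the groups overlapped. The means of Kdm3a, Dot1l, Kdm5b and Kdm1a differ by less than the spread of Dot1l between its own control libraries.

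Among the methyltransferases, Setd3 averaged 48.3 CPM per kilobase. Its product methylates a histidine of actin rather than a histone. Dot1l averaged 42.5, with 358 and 206 CPM in control against 315 and 279 CPM in Ythdf2-vKO, so that here too the control libraries lay on either side of the mutant ones. Ezh2, the catalytic subunit gene of Polycomb repressive complex 2, was steadier, at 93.1 and 92.0 CPM in control against 90.9 and 98.6 CPM in Ythdf2-vKO. It exceeded its paralogue Ezh1 by between 3.81 and 5.16 times per kilobase.

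Paralogues differed in level in the same direction in all 4 libraries. Suv39h2, which was first cloned from testis and acts on pericentromeric heterochromatin in germ cells, exceeded the X-linked Suv39h1 by between 2.68 and 3.16 times per kilobase. Kmt2b exceeded Kmt2a, both H3 lysine 4 methyltransferase genes, by between 7.59 and 10.5 times. Kdm1a exceeded Kdm1b by between 18.6 and 26.5 times, and Kdm5b exceeded Kdm5a by between 5.86 and 6.82 times. Kdm4d exceeded Kdm4a by between 7.20 and 12.4 times. Kdm4dl, 92.2% identical to Kdm4d over 948 nt, had between 136 and 145 counts against 3335 to 4332 for Kdm4d. Setd3 and Kmt5a likewise have processed pseudogenes, 98.0% identical over 943 nt and 92.1% over 940 nt. How reads matching both a gene and its copy were counted is not stated, so these values, and above all that of Kdm4dl, are uncertain.

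The sex-linked pair of H3 lysine 4 demethylase genes also differed. Kdm5c on the X chromosome had 15.1 and 15.1 CPM in control against 20.2 and 14.9 CPM in Ythdf2-vKO. Kdm5d on the Y chromosome had 2.82 and 2.90 CPM in control against 4.18 and 3.41 CPM in Ythdf2-vKO. Per kilobase, Kdm5c exceeded Kdm5d by between 5.39 and 6.61 times. The longest Kdm5d transcript holds repeats that match 106 other genes at 90% identity or more over at least 300 nt, so its level per kilobase is uncertain.

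The PRDM genes were mostly low. Prdm4 and Prdm2 led with 19.5 and 19.4 CPM per kilobase, and the other 10 lay between 0.0211 and 2.06. The counts of Prdm9 were 172 and 215 in control against 217 and 158 in Ythdf2-vKO, which is 7.36 and 7.17 CPM against 8.11 and 5.86 CPM. The 2 mutant libraries thus lay on either side of both controls. Prdm1 and Prdm14, which specify primordial germ cells in the embryo, were at the limit of detection, with counts of 2 and 3 against 5 and 2 for Prdm1 and of 4 and 4 against 0 and 2 for Prdm14. A count of 0 allows up to 3 counts, for counting error only, so the difference in Prdm14 was not detectable at this depth. These were the only members that did not pass the filter on low counts. No gene with the symbol Prdm12 or Prdm13 was in the deposited table, so these listed genes were not analysed.

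**Figure D1:**
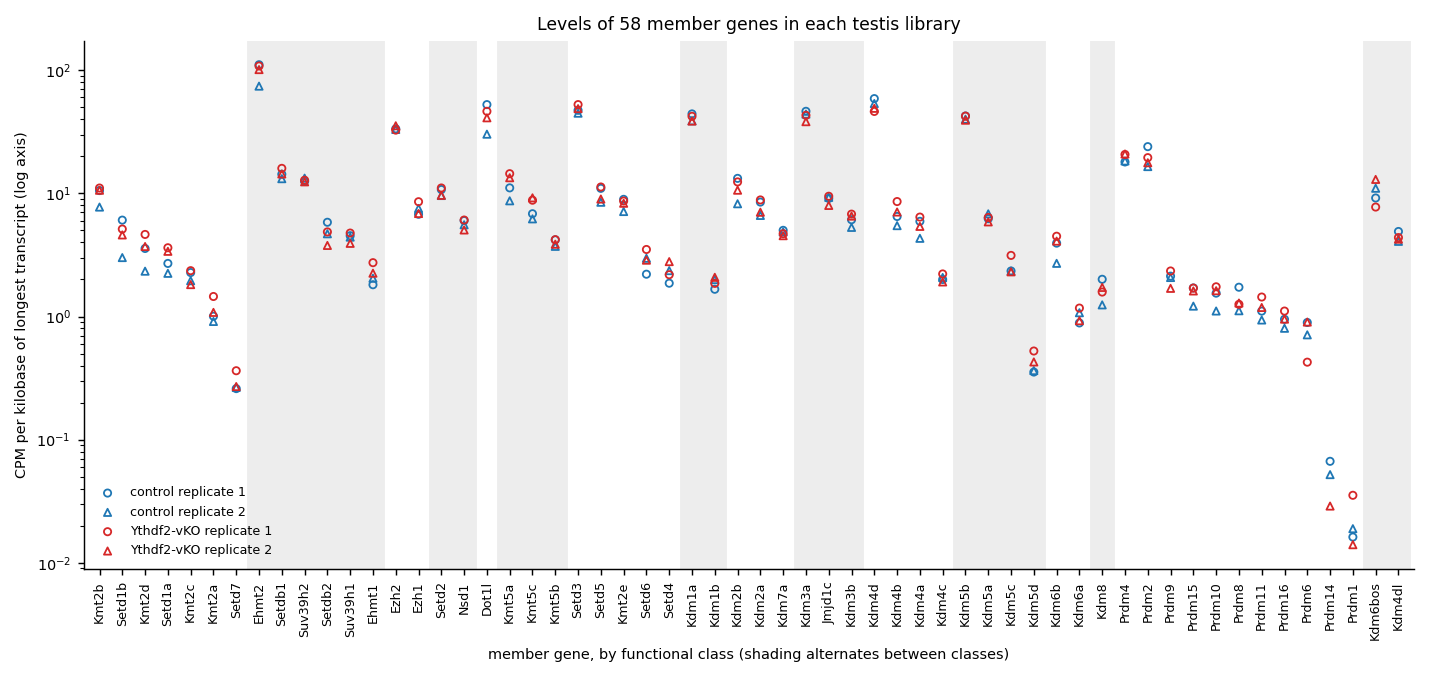
Level of 58 of the 59 genes in each of the 4 libraries, in CPM per kilobase of the longest transcript on a log axis, grouped by functional class and ordered by mean level within a class. Circles and triangles are replicates 1 and 2, blue is control and red is Ythdf2-vKO; Ehmt2 is highest at a mean of 98.5, Prdm1 lowest at 0.0211, and the count of 0 of Prdm14 in Ythdf2-vKO replicate 1 cannot be drawn.

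The comparison of genotypes asked whether transcripts of these chromatin regulators differ in testes of the germ cell mutant. Among the 57 tested genes, 0 reached the adjusted p threshold of 0.05. The test was the quasi-likelihood test of edgeR, adjusted by Benjamini-Hochberg over all 21132 genes tested, of which 0.393% passed. The smallest adjusted p was 0.178, for Kmt5a. At an unadjusted p under 0.05, 6 members had higher values in Ythdf2-vKO, which is 10.5% of the 57 against 7.65% of all genes, and 0 had lower values against 6.47% of all genes. A DESeq2 Wald test likewise called 0 members at the adjusted threshold, where 1.32% of all genes with an adjusted p were called, and had 5 members higher at an unadjusted p under 0.05 against 4.69% of all genes. The authors' deposited table holds the same analysis, not a further one, since its log2 fold changes equal those of this Wald test within 0.0001 for all 59 members. Its smallest adjusted p of a member was 0.188, also for Kmt5a.

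Small positive differences outnumbered negative ones. The fitted log2 fold change was positive for 39 of 57 members, or 68.4%, against 50.3% of all genes, with a median of 0.09 against 0.0027 for all genes. Both Ythdf2-vKO libraries lay above both controls for 18 members, or 31.6%, against 22.7% of all genes. They lay below both controls for 4 members, or 7.02%, against 22.6%, among them Kdm4d, Kdm3a and Kdm7a. These shares describe this list, which was not tested as a set. The median depended on single libraries. It was -0.01 without control replicate 2, with 28 of 57 values positive, and 0.04 without Ythdf2-vKO replicate 1, with 30 positive. Without control replicate 1 it was 0.17, and without Ythdf2-vKO replicate 2 it was 0.18.

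**Figure D2:**
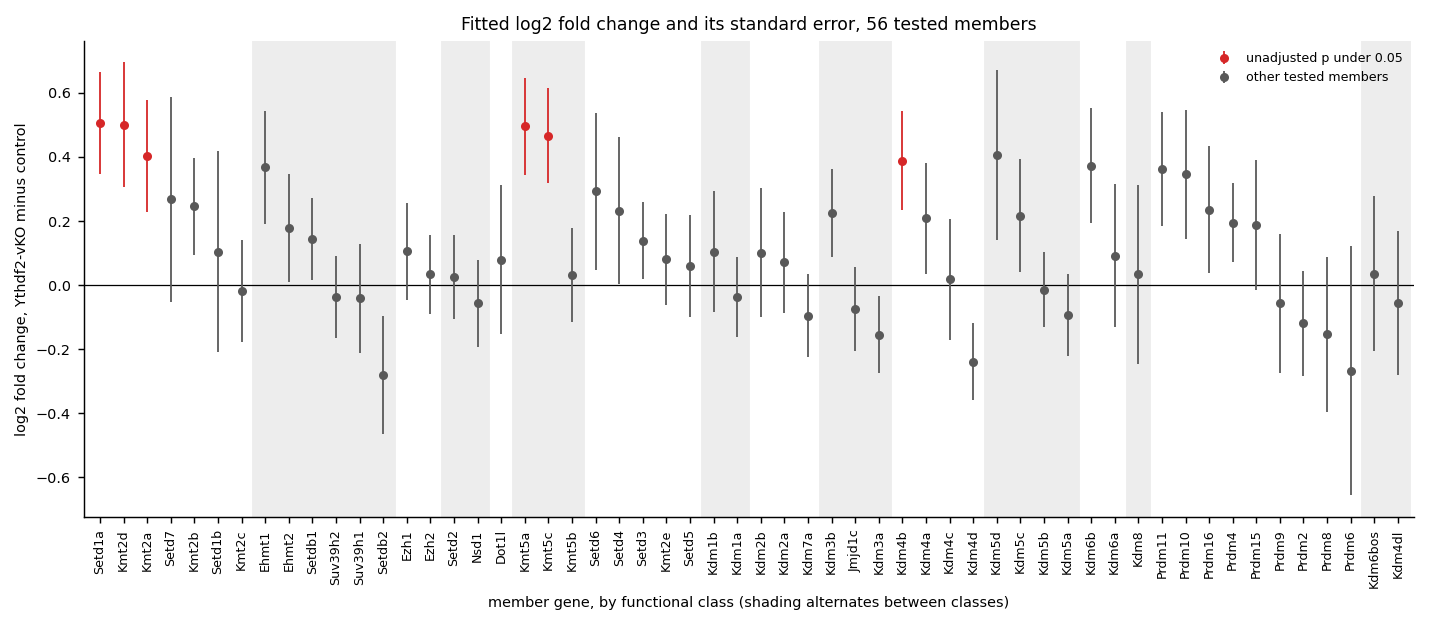
Fitted log2 fold change, Ythdf2-vKO minus control, of 56 of the 57 tested genes by functional class, with bars of 1 standard error. Red marks the 6 genes with an unadjusted p under 0.05, all above 0 and 5 of them methyltransferase genes; the drawn values run from -0.28 for Setdb2 to 0.51 for Setd1a.

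Of the 6, 5 are methyltransferase genes and 2 of those write the mark on H4 lysine 20. Kmt5a (chromosome 5, 124439930 to 124462308 in GRCm38) encodes the enzyme that adds the first methyl group there. It had 30.3 and 23.8 CPM in control against 39.6 and 36.7 CPM in Ythdf2-vKO, with both mutant libraries above both controls. Its log2 fold change was 0.50 (SE 0.15, unadjusted p 0.00627, edgeR adjusted p 0.178).

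Kmt5c (chromosome 7, 4740115 to 4747514) encodes an enzyme that adds further methyl groups to the same residue. It had 19.0 and 17.2 CPM in control against 24.4 and 25.5 CPM in Ythdf2-vKO, and the groups did not overlap. The log2 fold change was 0.47 (SE 0.15, edgeR adjusted p 0.193). The third gene of the class, Kmt5b, whose product also adds further methyl groups, had 25.7 and 22.7 CPM in control against 25.8 and 23.7 CPM in Ythdf2-vKO, a log2 fold change of 0.03 (SE 0.15).

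The other 3 methyltransferase genes encode catalytic subunits of COMPASS-type complexes, which methylate H3 lysine 4. Setd1a (chromosome 7, 127776670 to 127800122) had 17.5 and 14.5 CPM in control against 23.5 and 21.9 CPM in Ythdf2-vKO, a log2 fold change of 0.51 (SE 0.16, edgeR adjusted p 0.187). An M21 gene, Gm49388, shares 3523 nt of exons with Setd1a on the same strand, and how such reads were counted is not stated.

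Kmt2d (chromosome 15, 98831669 to 98871204) encodes an enhancer methyltransferase. It had 70.7 and 46.3 CPM in control against 91.9 and 73.4 CPM in Ythdf2-vKO, a log2 fold change of 0.50 (SE 0.19, edgeR adjusted p 0.284). Both mutant libraries lay above both controls, but the controls differed by more than the groups did, with a log2 ratio of -0.61 for control replicate 2 over replicate 1.

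Kmt2a (chromosome 9, 44803355 to 44881296), the gene of the MLL1 protein, had 16.6 and 15.0 CPM in control against 23.9 and 17.8 CPM in Ythdf2-vKO, a log2 fold change of 0.40 (SE 0.17, edgeR adjusted p 0.320). The groups did not overlap, with Ythdf2-vKO replicate 1 the highest library. Without it the log2 fold change was 0.17. The sixth gene, Kdm4b (chromosome 17, 56326062 to 56402870), encodes a JmjC demethylase of H3 lysines 9 and 36. It had 29.7 and 25.0 CPM in control against 39.3 and 32.3 CPM in Ythdf2-vKO, a log2 fold change of 0.39 (SE 0.15, edgeR adjusted p 0.277).

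Over the whole class of H3 lysine 4 methyltransferases, 6 of 7 genes had positive log2 fold changes and 5 had both mutant libraries above both controls, which is 85.7% and 71.4% of the class against 50.3% and 22.7% of all genes. The median was 0.27, and it was 0.48 without control replicate 1, 0.23 without control replicate 2, 0.17 without Ythdf2-vKO replicate 1 and 0.46 without Ythdf2-vKO replicate 2. Kmt2b had 89.2 and 65.5 CPM in control against 93.5 and 89.7 CPM in Ythdf2-vKO, a log2 fold change of 0.25 (SE 0.15). Setd1b, whose product is the catalytic subunit of the other SET1 complex, showed the largest log2 ratio between control libraries of all tested members, -1.01 for replicate 2 over replicate 1, at 53.7 and 26.7 CPM, against 45.4 and 40.7 CPM in Ythdf2-vKO. Kmt2c, the paralogue of Kmt2d, had a log2 fold change of -0.02 (SE 0.16).

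Writers of the H3 lysine 9 mark had values of both signs, with 3 of 6 positive and a median of 0.05. Ehmt1 had 10.8 and 12.2 CPM in control against 16.3 and 13.4 CPM in Ythdf2-vKO, without overlap, a log2 fold change of 0.37 (SE 0.18, unadjusted p 0.0568). Setdb1, which silences retroelements together with TRIM28, had 80.8 and 74.3 CPM in control against 90.2 and 81.2 CPM in Ythdf2-vKO, a log2 fold change of 0.14 (SE 0.13). Suv39h2 had 54.2 and 57.5 CPM in control against 55.3 and 53.6 CPM in Ythdf2-vKO, a log2 fold change of -0.04 (SE 0.13). Suv39h1 had 14.1 and 13.7 CPM in control against 14.8 and 12.2 CPM in Ythdf2-vKO, with the same log2 fold change of -0.04 (SE 0.17). The groups overlapped in both Suv39h genes and did not in Setdb1, where the gap between the groups was under 1 CPM.

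The writers of H3 lysines 27, 36 and 79 had log2 fold changes between -0.06 and 0.11. Ezh1 had 28.4 and 31.7 CPM in control against 35.97 and 28.8 CPM in Ythdf2-vKO, a log2 fold change of 0.11 (SE 0.15), and Ezh2 had one of 0.03 (SE 0.12). Setd2, which writes the trimethyl mark on H3 lysine 36 along transcribed genes, had 89.7 and 80.2 CPM in control against 92.3 and 80.4 CPM in Ythdf2-vKO, so that each group held 1 high and 1 low library. The log2 fold change of Dot1l was 0.08 (SE 0.23). Setd3 had 144 and 137 CPM in control against 161 and 149 CPM in Ythdf2-vKO, a log2 fold change of 0.14 (SE 0.12), and all 5 genes of its class of other SET-domain proteins had positive values, between 0.06 and 0.29. The 26 genes of the methyltransferase classes include these 5 other SET-domain genes, among them Setd3, and leave out the PRDM genes such as Prdm9. At an unadjusted p under 0.05 in edgeR, 5 of the 26 had higher values, or 19.2% against 7.65% of all genes. Among all 26 genes 21 values were positive, or 80.8% against 50.3%. Their median was 0.12, and it was 0.22 without control replicate 1, 0.03 without control replicate 2, 0.06 without Ythdf2-vKO replicate 1 and 0.20 without Ythdf2-vKO replicate 2.

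Among 19 demethylase genes, 12 log2 fold changes were positive, or 63.2% against 50.3% of all genes, and the median was 0.07. Without control replicate 2 the median was -0.02, without Ythdf2-vKO replicate 1 it was -0.07, and without Ythdf2-vKO replicate 2 it was 0.12. Kdm4d (chromosome 9, 14462548 to 14500482) had 158 and 144 CPM in control against 125 and 132 CPM in Ythdf2-vKO. Both mutant libraries lay below both controls, and the log2 fold change was -0.24 (SE 0.12, unadjusted p 0.0713, edgeR adjusted p 0.408). Kdm3a showed the same arrangement, with 225 and 213 CPM in control, 209 and 185 CPM in Ythdf2-vKO and a fitted value of -0.15 on the log2 scale (SE 0.12). The summed level of the 12 elongating spermatid marker genes was 17757 and 14507 CPM in control against 13820 and 14150 CPM in Ythdf2-vKO, also lower in both mutant libraries, and the 12 Sertoli cell genes summed to 1146 and 1175 CPM against 1594 and 1401 CPM. Spermatocyte genes, 11 of 13 with negative log2 fold changes, summed to 2162 and 2309 CPM in control against 2079 and 1982 CPM, again lower in both mutant libraries. Positive log2 fold changes were found in 11 of 12 spermatogonial, 8 of 8 Leydig, 8 of 9 macrophage, 6 of 7 endothelial and 4 of 4 erythrocyte genes, in 4 of 10 of round spermatids and in 2 of 7 of myoid cells. The macrophage count depended on the controls, which summed to 66.5 and 122 CPM against 110 and 92.6 CPM in Ythdf2-vKO. Its median log2 fold change was 0.07, but -0.34 without control replicate 1 and 0.98 without control replicate 2. The groups overlapped in all 9 macrophage genes. The part of the listed cell types in the values of the members was not tested.

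None of the other demethylase genes had an unadjusted p under 0.05 in edgeR, apart from Kdm4b. Kdm1a had 134 and 117 CPM in control against 128 and 117 CPM in Ythdf2-vKO, a log2 fold change of -0.04 (SE 0.13). Kdm2b, whose product brings a variant Polycomb complex to CpG islands, had 68.5 and 42.6 CPM in control against 64.1 and 54.9 CPM in Ythdf2-vKO. Kdm6b, an H3 lysine 27 demethylase gene, had 26.2 and 18.0 CPM in control against 29.8 and 27.2 CPM in Ythdf2-vKO, a log2 fold change of 0.37 (SE 0.18, unadjusted p 0.0577). Its antisense transcript Kdm6bos shares 286 nt of exons with it and had 7.70 and 9.24 CPM in control against 6.50 and 10.9 CPM in Ythdf2-vKO. In all, 23 members share exon bases with another M21 gene, 22 of them with one on the opposite strand. Whether the counting used strand is not stated, so such pairs cannot be fully told apart. Kdm5d, whose groups did not overlap, had a log2 fold change of 0.41 (SE 0.26), close to that of Kdm4b but with a larger error, and Kdm5c one of 0.22 (SE 0.18). Kdm3b, a paralogue of Kdm3a, had 38.8 and 33.7 CPM in control against 43.1 and 41.6 CPM in Ythdf2-vKO, a log2 fold change of 0.23 (SE 0.14), also without overlap. Kdm8 had a log2 fold change of 0.03 (SE 0.28) from 4.79 and 2.97 CPM in control against 3.77 and 4.11 CPM in Ythdf2-vKO.

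Of 10 tested PRDM genes, 5 had positive and 5 negative log2 fold changes, the highest being 0.36 for Prdm11. Prdm4 had 71.2 and 72.6 CPM in control against 82.0 and 82.7 CPM in Ythdf2-vKO. Replicates of Prdm4 were close and the groups did not overlap, and its log2 fold change was 0.19 (SE 0.12, edgeR adjusted p 0.521). Prdm9 had a log2 fold change of -0.06 (SE 0.22). With that standard error, which includes the spread between libraries, changes of the size seen in Prdm9 were not detectable with 2 libraries a group.

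Base composition moved with these differences, and its part in them was not tested. The summed level of the members was 3633 and 2996 CPM in control against 3621 and 3300 CPM in Ythdf2-vKO, so that control replicate 2 was the lowest library. GC content of the longest transcript ranged from 39.6% to 60.8% among the tested members, with a median of 50.6% against 48.9% for all genes tested. Across the 57 members, which share the same 4 libraries, the Spearman correlation of the log2 fold change with GC content was 0.46. That of the ratio of control replicate 2 to replicate 1 was -0.52. Over 21116 tested genes the log2 fold change had a correlation of 0.26 with GC content, so the trend was not particular to the members. Deviations of each library from the 4-library mean were correlated with GC content over 17817 genes. The values were 0.02 and -0.40 in control replicates 1 and 2, and 0.25 and 0.19 in Ythdf2-vKO replicates 1 and 2. Of the 33 members above the GC median of all genes, 26 had positive log2 fold changes, with a median of 0.19, and all 6 genes with an unadjusted p under 0.05 were among them. Of the 24 at or under it, 13 were positive, with a median of 0.02. In the GC-rich set, control replicate 2 was below control replicate 1 for 27 of 33 genes, and in the other set for 16 of 24.

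A fit with an offset for GC content brought the correlation among the members to 0.08 and the median of the GC-rich set to 0.13, while that of the other set became 0.08. The offset was fitted to the GC trend of these same libraries, so the fall of the correlation was largely set in advance. Any difference between genotypes that follows GC content is removed with it. The median of all 57 members was 0.08 with the offset against 0.09 without it, and 38 values were positive against 39. The median of the methyltransferase classes was 0.09 with the offset against 0.12 without it. That of the demethylase classes was 0.08 against 0.07, so the 2 groups of classes then had nearly the same median. The H3 lysine 4 methyltransferases alone had 0.30 against 0.27. The number of members with an unadjusted p under 0.05 became 4 higher, against 6.67% of all genes, and 1 lower, against 7.08%. The 4 were Kmt5a, Setd1a, Kmt2d and Kmt2a, and the lower gene was Kdm4d, at a log2 fold change of -0.27 (unadjusted p 0.0370). With the offset the log2 fold change of Kmt5a was 0.50 and that of Kmt2a 0.40, each as without it to 2 decimals. That of Setd1a was 0.36 against 0.51 without it, and that of Kmt2d 0.34 against 0.50. Kmt5c had 0.26 against 0.47 and Kdm4b 0.21 against 0.39. Ehmt2 and Dot1l then had values of the opposite sign, at -0.02 and -0.06.

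**Figure D3:**
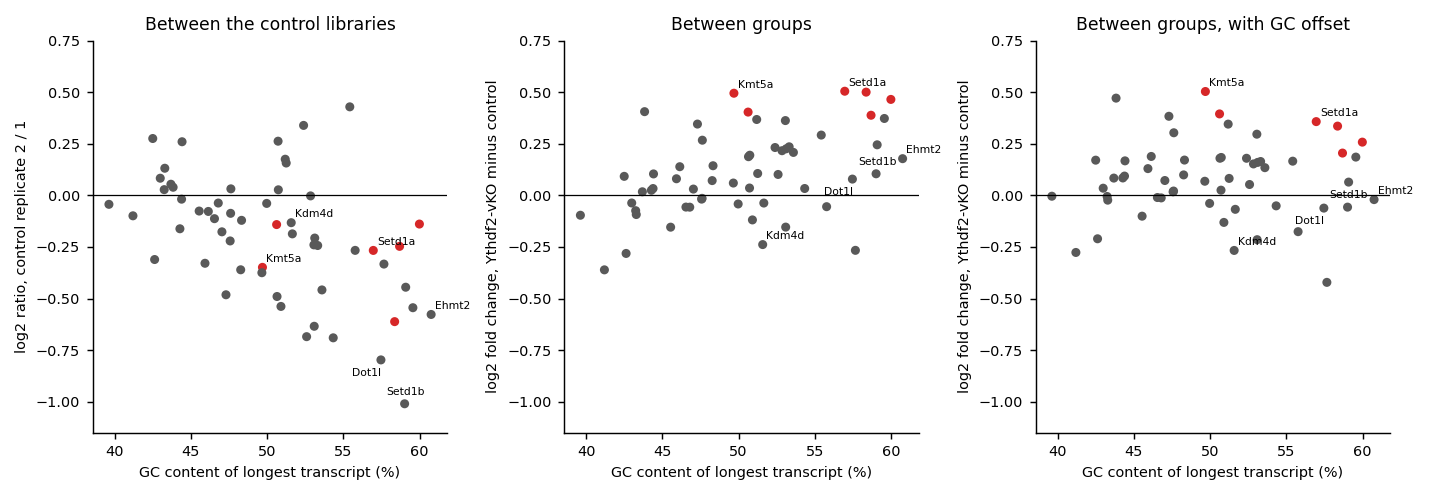
Each point is 1 of the 57 tested genes, placed by the GC content of its longest transcript in percent. The log2 ratio of control replicate 2 to replicate 1 (left) reaches -1.01 for Setd1b among GC-rich genes, the log2 fold change between groups (centre) has a correlation of 0.46 with GC content, and with the GC offset (right) 0.08; red marks the 6 genes with an unadjusted p under 0.05 in the fit without the offset.

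The 6 genes were followed through 14 alternative fits of the same libraries, 10 with all of them and the others leaving out a library each. A fit without one library leaves its group with a lone sample, which is assumed to vary like the other group. The genes were picked by their p-values in these same libraries, and several alternatives change only a filter, scaling or fit setting. How often a low p recurred is therefore no further evidence for them. Over the 14 alternatives the log2 fold change ran from 0.33 to 0.67 for Kmt5a and from 0.36 to 0.64 for Setd1a. It ran from 0.23 to 0.83 for Kmt2d and from 0.26 to 0.53 for Kmt5c. For Kmt2a it ran from 0.17 to 0.60 and for Kdm4b from 0.20 to 0.52. Without control replicate 1, in which GC-rich members were higher than in control replicate 2, 10 members passed the adjusted threshold, against 4.72% of all genes. They were Dot1l, Ehmt2, Kdm2b, Kdm4b, Kdm6b, Kmt2b, Kmt2d, Kmt5a, Setd1a and Setd1b, named after their values were seen. With the replicate number as a block, for which the labels gave no ground, 3 members passed the adjusted threshold against 2.97% of all genes. With the GC offset as well, 1 passed against 1.38%. At an unadjusted p under 0.05 the block gave 10 members higher against 10.2% of all genes and 1 lower against 8.78%, and with the GC offset as well 1 lower against 9.26%. Scaling by library totals alone gave 10 higher against 10.3%. Without Ythdf2-vKO replicate 1, only Kmt5a and Kmt5c had an unadjusted p under 0.05 with higher values, against 3.62% of all genes. Without control replicate 2, 0 members passed the adjusted threshold. At an unadjusted p under 0.05, 4 were then higher and 5 lower, each against 8.7% of all genes. Dot1l and Setd1b were among the higher genes without control replicate 1 and among the lower genes without control replicate 2.

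**Figure D4:**
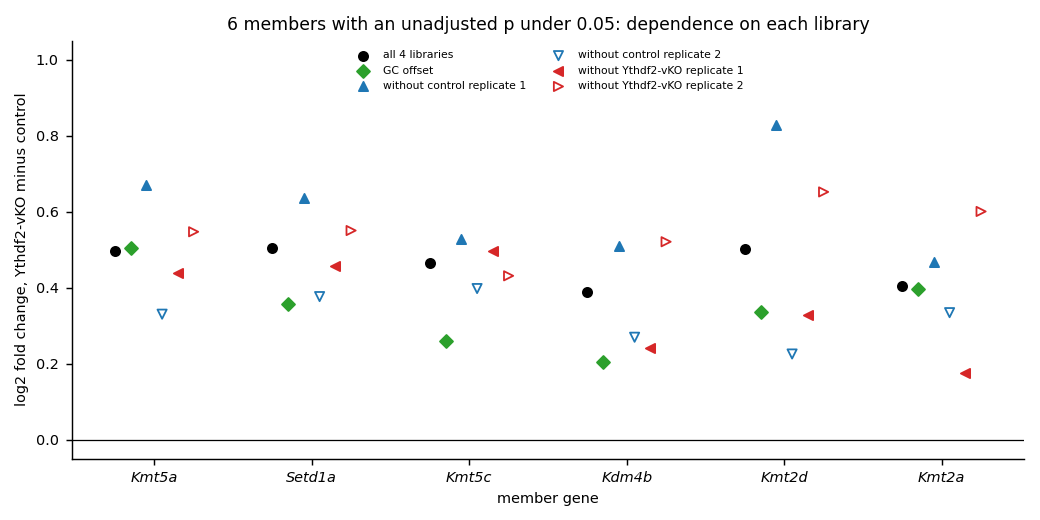
Log2 fold change of the 6 genes with an unadjusted p under 0.05 in the fit of all 4 libraries (black), with the GC offset (green) and without each control (blue) or Ythdf2-vKO (red) library in turn. All points lie above 0; Kmt2d runs from 0.23 without control replicate 2 to 0.83 without control replicate 1.

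Genes whose products work with these enzymes were read from 6 lists of partners. Of 67 such genes in the table, 65 were tested, and 0 passed the adjusted threshold by edgeR, where 0.393% of all genes passed, or by the DESeq2 Wald test. At an unadjusted p under 0.05 in edgeR, 5 were higher, or 7.69% against 7.65% of all genes, and 2 lower, or 3.08% against 6.47%, with a median log2 fold change of -0.0038. Men1, the COMPASS subunit gene with the smallest p of its list, had 25.3 and 22.6 CPM in control against 35.8 and 33.7 CPM in Ythdf2-vKO, a log2 fold change of 0.54 (SE 0.14, edgeR adjusted p 0.127). Menin, its product, binds the proteins of Kmt2a and Kmt2b, but the median of the 11 COMPASS partner genes was -0.0047. Wiz, whose product joins the G9a-GLP complex, had 38.4 and 23.9 CPM in control against 50.0 and 44.6 CPM in Ythdf2-vKO. Its log2 fold change was 0.60 (SE 0.20, edgeR adjusted p 0.215), and the log2 ratio of control replicate 2 over replicate 1 was -0.68. Its list of 9 H3 lysine 9 partners had 1 higher and 1 lower gene at an unadjusted p under 0.05, or 11.1% each. Both mutant libraries lay below both controls for 4 of the 9, or 44.4% against 22.6% of all genes. They lay above for 2, or 22.2% against 22.7%.

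The smallest p among LSD1-CoREST partners belonged to Hmg20b, with a log2 fold change of 0.42 (SE 0.15, edgeR adjusted p 0.231), and at an unadjusted p under 0.05 that list of 11 had 2 higher and 1 lower gene, or 18.2% and 9.09% against 7.65% and 6.47% of all genes. Riox1, which encodes a JmjC oxygenase of the nucleolus and nucleus, had 3.98 and 4.17 CPM in control against 7.92 and 6.45 CPM in Ythdf2-vKO, a log2 fold change of 0.82 (SE 0.22, edgeR adjusted p 0.139). In the other lists the smallest p was that of Jarid2 for Polycomb repressive complex 2, at a log2 fold change of 0.28 (SE 0.16), and that of Spo11, the enzyme of meiotic double-strand breaks, for the PRDM9 pathway, at -0.24 (SE 0.12). Neither list had a gene with an unadjusted p under 0.05 in edgeR. Of the 11 PRDM9 pathway genes 8 had negative values and 3 positive ones, or 27.3% positive against 50.3% of all genes. Spo11 and Dmc1, both negative, are also among the 13 spermatocyte genes above. With the GC offset, log2 fold changes were 0.39 for Men1, 0.47 for Wiz, 0.20 for Hmg20b and 0.58 for Riox1. Jarid2 then had 0.30 and Spo11 -0.19.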

How the data were processed

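Total RNA of mouse testis was extracted with Trizol, depleted of ribosomal RNA and made into directional libraries, per the labels' protocols. The authors deposited raw read counts per gene and library. The authors' deposited table also gives a mean normalized count (a signal, counts over size factors), a log2 fold change and its error, and p-values with adjusted p-values, under column names of DESeq2, per the file headers. HISAT2 2.1.0 and HTSeq 0.6.1p1 are named in the submitters' processing notes. The genome build and the strand setting are not given in the sources used here.

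Counts were tested in R 4.3.3 by edgeR 4.0.16, which uses limma 3.58.1, after TMM scaling, with filterByExpr and a robust quasi-likelihood fit of genotype, two-sided, and adjusted by Benjamini-Hochberg over 21132 genes. The standard error is the absolute log2 fold change over the square root of F. DESeq2 1.42.0 was an alternative. The fit was tested on simulated data. Coordinates, transcript length and GC content come from GENCODE M21 (GRCm38), joined by identifier for 59 of 59 members; the authors' build may differ. Similar transcripts were searched with BLAST 2.17.0. The GC offset was a lowess curve (span 0.3) per library.

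Values in every library were given for members with an unadjusted p under 0.05, the most abundant member per kilobase of each class, and 14 genes with known germ cell roles. The other members given with values, such as Kmt5b, Kmt2c, Setd1b, Ehmt1, Kdm3b and Prdm11, were chosen after their values were seen. The values of 1 member are not reported here, and it is counted in the totals. A partner gene was named if it had the smallest p of its list. Members and lists were chosen with earlier results of these data known. Replicate numbers were not taken to pair libraries. Reads carry no molecular identifiers, so counts cover counting error only.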

Additional observations from a re-analysis of the deposited data

How the results depend on the processing

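No member was called lower under any of the 14 alternatives. Calls of members at higher values numbered 0 in the fit of all libraries, 3 with the replicate block (Kmt2d, Kmt5a and Setd1a, against 2.97% of all genes), 1 with the GC offset and replicate block (Kmt5a, against 1.38%) and between 0 and 10 when each library was left out. Members higher at an unadjusted p under 0.05 numbered 6 in the fit of all libraries, 10 with library totals alone (against 10.3% of all genes), 10 with the replicate block (against 10.2%), and from 2 to 16 without each library in turn, the lowest without Ythdf2-vKO replicate 1 (against 3.62% of all genes) and the highest without control replicate 1 (against 11% of all genes). Members lower at that threshold numbered 1 with the replicate block (against 8.78% of all genes), 1 with the GC offset (7.08%), 1 with both (9.26%), and from 0 to 5 without each library in turn, the 5 being without control replicate 2 (8.7%). The median log2 fold change of the members ran from -0.01 to 0.18 over these last fits. The replicate numbers were not taken to pair the libraries, since the labels gave no ground for it. Deviations from the group means correlated at 0.0932 between libraries of the same number. With 2 libraries a group the deviations mirror each other, so both pairs give this same value, which cannot settle pairing. Ythdf2 passed the threshold with the GC offset and replicate block, at a log2 fold change of 0.40. The cause was not tested for these.

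Of 280 values for 28 named members under 10 alternatives with all libraries, 260 kept their direction and side of the threshold, 4 passed it, and 16 had the opposite sign. With library totals alone these were Kdm1a (0.031), Kdm5b (0.053), Prdm9 (0.0073), Suv39h1 (0.023) and Suv39h2 (0.027). With the GC offset, and with the GC offset and replicate block, they were Ehmt2 (-0.020 and -0.012), Dot1l (-0.062 and -0.031), Kdm5b (0.021 and 0.021), Kdm8 (-0.051 and -0.032) and Suv39h2 (0.035 and 0.035), and in the latter fit also Kdm6bos (-0.0031). Leaving out a library turned the sign in 14 named genes. Their log2 fold changes then ran from -0.081 to 0.49 for Ehmt2, -0.028 to 0.091 for Ezh2, -0.078 to 0.12 for Setd2, -0.27 to 0.52 for Dot1l, -0.13 to 0.052 for Kdm1a, -0.20 to 0.47 for Kdm2b, -0.070 to 0.038 for Kdm5b, -0.28 to 0.40 for Kdm8, -0.39 to 0.36 for Kdm6bos, -0.31 to 0.16 for Prdm9, -0.062 to 0.26 for Ezh1, -0.19 to 0.089 for Suv39h1, -0.085 to 0.0066 for Suv39h2 and -0.022 to 0.42 for Kdm5c. Prdm1 and Prdm14 had too few counts for the test.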
